A study of Mus musculus with 4 samples.

Results

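The 10 genes described here are 9 Toll-like receptor genes (Tlr1, Tlr2, Tlr3, Tlr4, Tlr6, Tlr7, Tlr8, Tlr9 and Tlr13) and Myd88, chosen by name from the 33696 genes counted, and all 10 had UMIs (unique molecular identifiers, each standing for 1 captured RNA molecule). Single-cell RNA was counted in 4 libraries, 1 per treatment group, made from viable cells that had been sorted as CD45+ out of subcutaneous KPC tumours. KPC is a mouse pancreatic cancer line derived from mice that carry, among other alleles, P53 LSL.R172H/+ with Pdx-Cre. The hosts were male C57BL/6 mice aged 8 to 10 weeks, and tumours were removed on day 14.

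The untreated group received no agonist. The STING agonist group received ADU-S100, a cGAMP analog that activates STING, the cytosolic sensor of cyclic dinucleotides, once by injection into the tumour. The LTbR agonist group received the agonist antibody 4H8 against the lymphotoxin-β receptor by repeated intraperitoneal injection. The STING and LTbR agonist group received both agents. Each library pooled 10 tumours, so it has no replicate within its group. Cells of a library are not replicates of a treatment, and therefore no p-value is given. Every interval below is an exact 95% interval for counting error only and holds no variation between mice.

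Toll-like receptors recognise conserved parts of microbes and of damaged cells. Those at the cell surface mostly bind lipids and proteins of bacteria, whereas those in endosomes bind nucleic acids and need the chaperone Unc93b1 to reach them. MyD88 is the adaptor that most of these receptors recruit to activate NF-κB, with TLR3 using TRIF instead and TLR4 using both. In tumours these receptors are mainly carried by macrophages, neutrophils, dendritic cells and B cells.

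The libraries held 8730 untreated cells, 15404 cells with the STING agonist, 14634 with the LTbR agonist and 16322 with both, of which 48848 were kept over all 4. Median depth was 4712, 3187, 3730.5 and 2157.5 UMIs per cell in the same order, so the depth differed between groups. Cells were named from marker genes that did not include the 10 genes. This gave 3925, 5484, 7077 and 7734 macrophages and monocytes and 491, 5295, 973 and 1300 neutrophils. It gave 656, 503, 811 and 801 dendritic cells and 114, 75, 541 and 1039 B and plasma cells. B cells themselves were few, with 7 untreated and 8 in the STING agonist library against 143 and 210 in the other two. Cell barcodes shared by any pair of libraries made up 0.227 to 0.539% of a library. Cells of non-leukocyte clusters, 1.53 to 2.09% of those kept, were set aside. No subset name was given to 17.5 to 29.5% of macrophages and monocytes and to 55.4 to 62.5% of neutrophils, which count in their class only. Levels are given as CPM, the UMIs of the gene divided by all UMIs of the cells in question and scaled in the usual way, and they are compared between cell types or libraries, not between genes.

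Most of the RNA of these genes came from macrophages and monocytes. In the untreated library this class held 63.1% of all UMIs of leukocytes, and between 50.9% (Tlr3) and 91.2% (Tlr8) of the UMIs of each of the 10 genes. With the STING agonist, neutrophils held 18.3% of all UMIs against 2.12% in the untreated library. In that library neutrophils gave 66.5% of Tlr6 UMIs and macrophages and monocytes 27.7%, and for Tlr4 the shares were 46.7% and 47.0%.

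**Figure D1:**
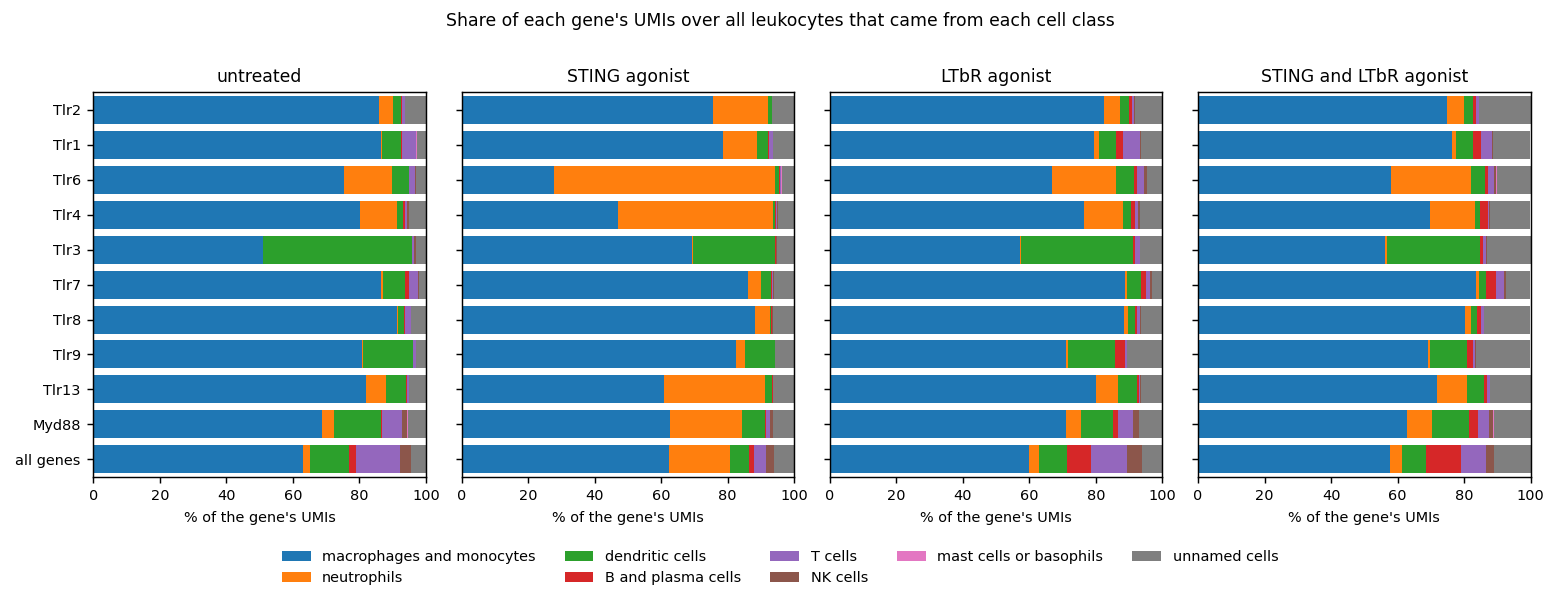
The 4 panels are the libraries, and each bar splits a gene's UMIs over all leukocytes, in percent, by the cell class they came from, with all genes together as the lowest bar. Neutrophils take a visible part of Tlr6, Tlr4, Tlr13, Myd88 and Tlr2, most of all in the STING agonist library, and dendritic cells take a large part of Tlr3. In the STING agonist library the neutrophil part of Tlr2 (16.5%) is below that of all genes together (18.3%).

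T cells served as a class in which most of these receptors are expected to be low, since droplets can also capture free RNA. They carried 2.59 to 5.96% of the macrophage level of macrophage and monocyte markers. As a share of the macrophage level, T cells had 2.59 to 7.49% of Tlr2, 0 to 6.26% of Tlr9 and 2.77 to 7.37% of Tlr13. The share was 4.18 to 9.12% for Tlr8, 4.59 to 13.6% for Tlr4, 5.81 to 21.5% for Tlr7 and 11.8 to 22.4% for Tlr6. Tlr3 stood at 0.407 to 1.68 CPM in T cells against 11.2 to 19.3 in macrophages and monocytes. The share was 22.8 to 36.9% for Tlr1 and 34.0 to 42.5% for Myd88. For Tlr1, Tlr3, Tlr6, Tlr7, Tlr8 and Myd88 it was above the share of the markers in every library. In the STING agonist library T cells had 17.9 CPM of Tlr4, against 4.78 to 8.56 in the other 3, and their neutrophil markers stood at 0.873% of the neutrophil level, against 0.0610 to 0.135%. The part of neutrophil RNA in that value was not tested.

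The plot of levels by cell type shows each gene in most of the named cell types of which a library held 50 or more cells. A macrophage subset that is not reported here is not drawn. Over the cell types of a library ordered by level, most neighbours could not be told apart by counting error. For Tlr1 in the untreated library the interval of the ratio included 1 for 15 of 15 neighbouring pairs, and for Tlr2 in the STING agonist library, the most separated case, for 6 of 14.

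**Figure D2:**
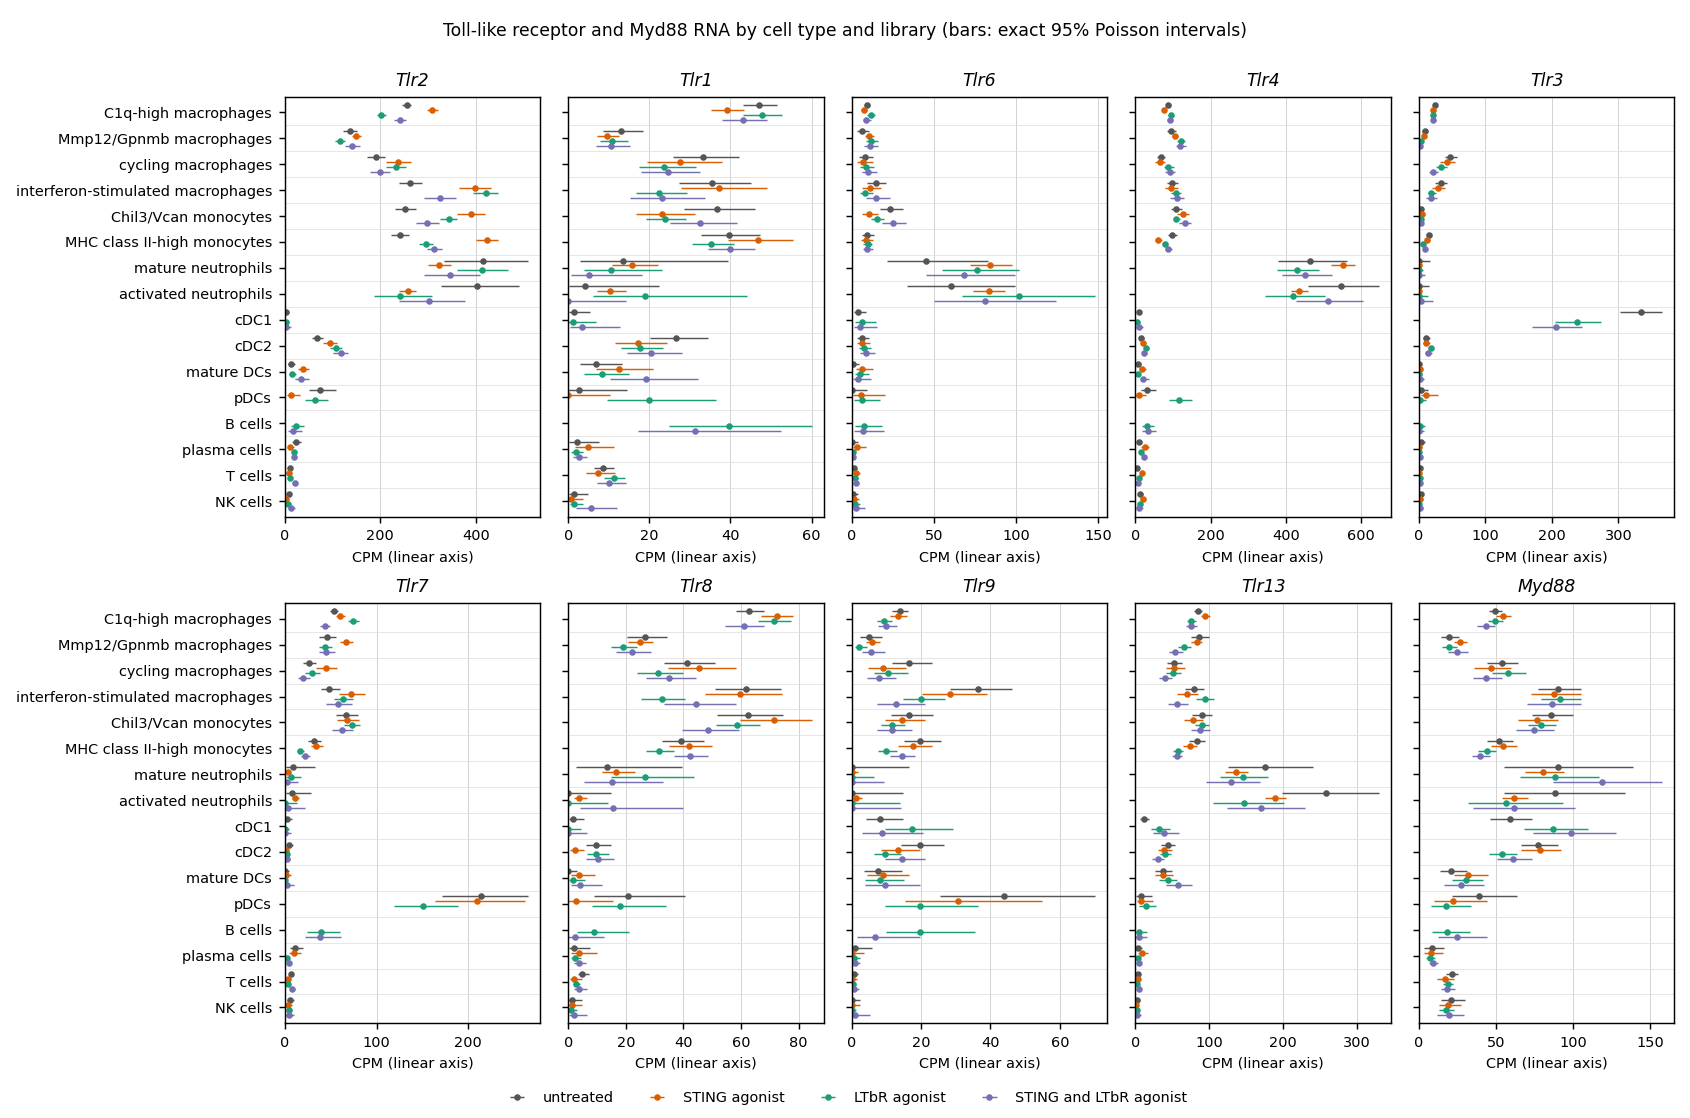
Each panel is a gene with its own linear CPM axis; rows are cell types, colours are the 4 libraries, points are CPM of summed UMIs and bars are exact 95% Poisson intervals. Among the types drawn, Tlr4, Tlr6 and Tlr13 sit highest in neutrophils, Tlr3 in cDC1 and Tlr7 in pDCs, while Tlr8 and Tlr1 sit highest in macrophage or monocyte subsets. Groups with fewer than 50 cells are not drawn, nor is a macrophage subset that is not reported here.

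Among the surface receptors, Tlr2 encodes the receptor of bacterial lipopeptides, which works as a pair with TLR1 or TLR6. Its RNA was found in all macrophage and monocyte subsets and in neutrophils. The 300 bases around its start site are shown because Tlr2 was higher in every macrophage subset with the STING agonist, as Tlr7 was too. They are the RefSeq (GRCm38.p6) bases chr3:83841559-83841858, on the minus strand and written 5′ to 3′, from 250 bases before to 50 after the start, with matches to the κB element in capitals.

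Tlr2: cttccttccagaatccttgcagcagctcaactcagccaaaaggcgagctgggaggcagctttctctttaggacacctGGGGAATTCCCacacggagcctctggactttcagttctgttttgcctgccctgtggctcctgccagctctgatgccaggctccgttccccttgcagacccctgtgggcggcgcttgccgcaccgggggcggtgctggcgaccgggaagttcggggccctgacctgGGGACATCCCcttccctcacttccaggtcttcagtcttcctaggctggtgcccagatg

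The κB element, the DNA word bound by NF-κB, was matched 3 times, beginning at -173, -172 and -8 relative to the start, and the 2 upstream matches overlap. On either strand 8.46% of 32851 RefSeq promoters of the same length hold a match. A match of letters is a description and does not show binding.

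In macrophages and monocytes as a class, Tlr2 stood at 244 CPM untreated, 345 with the STING agonist, 265 with the LTbR agonist and 279 with both. The STING agonist library was thus 1.41-fold the untreated library (1.37 to 1.46), the LTbR agonist library 1.09-fold (1.05 to 1.12) and the library with both 1.14-fold (1.10 to 1.18). The share of these cells with a Tlr2 UMI was 55.3% untreated and 65.8% with the STING agonist. After each cell was thinned to 1000 UMIs, the shares were 19.5%, 25.4%, 21.6% and 22.4% over the 4 libraries, against 0.548 to 1.63% of T cells.

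By subset, Tlr2 was lowest in macrophages marked by Mmp12 and Gpnmb in all 4 libraries, with 136, 150, 115 and 141 CPM. With the STING agonist, Tlr2 was higher than untreated in 7 of 7 subsets, at 1.10 to 1.76-fold, and the interval lay above 1 in 6. The largest ratio was in MHC class II-high monocytes, from 241 to 423 CPM (1.76-fold, 1.60 to 1.93). With untreated subset levels and the treated subset shares the class ratio would have been 1.10, and with treated levels and untreated shares it would have been 1.32, beside the measured 1.41.

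With the LTbR agonist the subsets went both ways. Tlr2 in interferon-stimulated macrophages was 420 CPM against 262 (1.60-fold, 1.43 to 1.79), and in C1q-high macrophages, which carry the complement component C1q, it was 202 against 256. Over all 7 subsets, 4 were higher and 3 lower with the LTbR agonist.

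In neutrophils Tlr2 was at 356 CPM untreated, 257 with the STING agonist, 310 with the LTbR agonist and 313 with both. The STING agonist library was at 0.721-fold (0.644 to 0.811), opposite in direction to macrophages. In activated neutrophils the values were 402 and 257 CPM (0.639-fold, 0.519 to 0.794). In cDC2, the dendritic cells that present antigen to CD4 T cells, Tlr2 was at 68.1, 93.8, 107 and 117 CPM. Plasmacytoid dendritic cells (pDCs) stood at 74.8, 13.9, 63.5 and 69.1 CPM, the last from 37 cells, and cDC1 at 3.77 CPM or less. The STING agonist value of pDCs rests on 5 UMIs. Macrophage and monocyte markers in pDCs were at 26.5%, 9.42%, 10.4% and 22.2% of the macrophage level. The part of macrophage RNA in the pDC values was not tested. Over all dendritic cells the Tlr2 ratios were 1.45 (1.19 to 1.77), 1.70 (1.42 to 2.04) and 1.98 (1.63 to 2.40), and without pDCs 1.70, 1.85 and 2.15. With wider limits on cells the log2 ratios were 0.43 with the LTbR agonist and 0.58 with both, and at Leiden resolution 2 that of the LTbR agonist was 0.56, all under 1.5-fold. In cDC2 the ratio was 1.57 with the LTbR agonist (1.28 to 1.93) and 1.71 with both (1.38 to 2.13). The summed level of the 10 macrophage and monocyte markers in cDC2 was 1727, 1180, 2034 and 2890 CPM over the 4 libraries, and its part in the Tlr2 values was not tested.

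Tlr1 and Tlr6 encode the partners of TLR2 for triacylated and diacylated lipopeptides. The genes have near-identical stretches: 15.4% of the 50-base words of Tlr1 and 12.3% of those of Tlr6 occur elsewhere among transcripts, and 454 words are shared between them. Reads from those stretches cannot be assigned to either gene, so their levels are less certain than those of the other members. Even so, the 2 genes were highest in different cells.

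Tlr1 stood at 37.3, 27.3, 30.2 and 31.1 CPM in macrophages and monocytes. The level was highest in C1q-high macrophages in 3 of 4 libraries (47.1, 39.1, 47.8 and 43.2) and in MHC class II-high monocytes with the STING agonist (46.9). It was lowest in the Mmp12 and Gpnmb subset in all 4 libraries, at 9.53 to 12.9 CPM. B cells reached 39.6 CPM with the LTbR agonist (24.8 to 60.0) and 31.3 with both (17.1 to 52.5), on 22 and 14 UMIs. Plasma cells stood at 1.80 and 2.57 CPM in the same libraries, relative to totals that include their immunoglobulin RNA. Neutrophils had 6.49 to 12.1 CPM, below macrophages in all 4 libraries.

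Tlr6 showed the other pattern. In neutrophils it was at 60.6, 88.9, 74.2 and 78.7 CPM, against 10.5, 10.9, 12.3 and 11.4 in macrophages and monocytes. With the STING agonist the neutrophil level was 1.47-fold the untreated one (1.12 to 1.95). That ratio lies just under the 1.5-fold used below, and on 56 untreated UMIs its interval includes 1.5. Within macrophages and monocytes the subset values were 6.20 to 25.0 CPM, with Chil3 and Vcan monocytes highest in the untreated library (23.2) and with both agonists (25.0).

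Tlr4 encodes the receptor of bacterial lipopolysaccharide, which needs the co-receptors CD14 and MD-2 (Ly96). Neutrophils had the highest level in all 4 libraries, at 434, 444, 421 and 439 CPM, and the interval of each treated to untreated ratio included 1. The STING agonist ratio was 1.02 (0.924 to 1.13), the LTbR agonist ratio 0.971 (0.859 to 1.10), and that of both 1.01 (0.894 to 1.15). Macrophages and monocytes stood at 104 CPM untreated and at 131, 131 and 135 in the treated libraries, or 1.26-fold (1.20 to 1.32), 1.26-fold (1.20 to 1.32) and 1.30-fold (1.24 to 1.37).

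With the STING agonist, untreated subset levels of Tlr4 at the treated subset shares would have given 1.21-fold for the class, and treated levels at untreated shares 1.03-fold. Within subsets 5 of 7 were lower, with the interval below 1 in 2. The lowest ratio was in MHC class II-high monocytes, with 61.3 CPM against 98.2 (0.624-fold, 0.516 to 0.754). With both agonists 6 of 7 subsets were higher, with the interval above 1 in 4, and the 7 ratios were 0.896 to 1.36.

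In dendritic cells Tlr4 was low, at 15.9 to 28.4 CPM in cDC2 and 4.98 to 10.5 in cDC1. The class ratio with the LTbR agonist was 2.13 (1.59 to 2.89), but on the log2 scale it was 0.49, under 1.5-fold, both with each cell named by its own markers and with wider limits on cells. pDCs gave 117 CPM in that library against 30.9 untreated, and they also carried neutrophil markers at 1.30% of the neutrophil level against 0.0794%. Without pDCs the ratio was 1.61 (1.14 to 2.29), and the part of neutrophil RNA was not tested.

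Among the endosomal receptors, Tlr3 encodes the receptor of double-stranded RNA. The 300 bases around its start, shown because Tlr3 was lower in both macrophages and dendritic cells of all 3 treated libraries, are RefSeq (GRCm38.p6) chr8:45410331-45410630, minus strand, 5′ to 3′, with a κB match at -211 in capitals.

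Tlr3: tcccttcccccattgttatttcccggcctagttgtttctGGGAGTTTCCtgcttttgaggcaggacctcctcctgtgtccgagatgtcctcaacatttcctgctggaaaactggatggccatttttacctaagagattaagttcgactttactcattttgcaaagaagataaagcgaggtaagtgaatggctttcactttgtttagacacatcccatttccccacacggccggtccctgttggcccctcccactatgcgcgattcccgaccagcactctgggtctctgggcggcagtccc

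cDC1, the cross-presenting dendritic cells that take up dead cells, had 334 CPM of Tlr3 untreated (303 to 366), 284 with the STING agonist (242 to 331), 238 with the LTbR agonist (205 to 274) and 206 with both (170 to 246). A UMI was found in 70.1%, 62.5%, 65.9% and 51.0% of cDC1, and in 21.0%, 14.6%, 20.5% and 17.5% at 1000 UMIs per cell. T cells with a UMI made up 0.170 to 0.499%. The untreated cDC1 level was 7.02 times that of cycling macrophages, the next cell type. The STING agonist value rests on 48 cells. The ratio of cDC1 with both agonists to untreated cDC1 was 0.616 (0.498 to 0.757).

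Over all dendritic cells, Tlr3 was at 0.527-fold with the STING agonist (0.442 to 0.625), 0.493-fold with the LTbR agonist (0.421 to 0.578) and 0.476-fold with both (0.392 to 0.575). cDC1 gave 26.3% of dendritic cell UMIs untreated and 14.8%, 15.1% and 17.4% in the treated libraries. At untreated levels these shares alone would have given 0.591, 0.610 and 0.695. With the shares held at untreated, the treated levels would have given 0.871, 0.761 and 0.652. Both the share of cDC1 and the level within cDC1 were lower in the treated libraries, though for the STING agonist the interval of the cDC1 level overlapped the untreated one.

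In macrophages and monocytes Tlr3 stood at 19.3, 12.7, 11.2 and 11.3 CPM, with ratios of 0.660 (0.584 to 0.746), 0.580 (0.509 to 0.661) and 0.584 (0.505 to 0.675). Cycling macrophages were the highest subset in every library (47.5, 42.4, 33.2 and 21.9). The summed cDC1 markers were at 1356, 1044, 1142 and 1040 CPM in that subset, and their part was not tested. Chil3 and Vcan monocytes were at 2.57 to 4.86 CPM. The subset shares of the treated libraries alone would have given 0.706, 0.818 and 0.848, and treated levels at untreated shares 0.891, 0.741 and 0.728. With the STING agonist 5 of 7 subsets were lower and 2 higher (0.764 to 1.89-fold), and the interval lay below 1 in 0 of them. It lay below 1 in 4 of 7 subsets with the LTbR agonist and in 4 of 7 with both. When each cell was named by its own markers in place of its cluster, the 3 ratios were -0.32, -0.42 and -0.36 on the log2 scale and none was past 1.5-fold. Neutrophils had 0 UMIs of Tlr3 untreated, where 3 counts would be 3.25 CPM, and 0.327 to 1.95 CPM otherwise.

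Tlr7 and Tlr8 encode receptors of single-stranded RNA and its breakdown products. pDCs, the dendritic cells known for interferon secretion, had the highest Tlr7 level in the 3 libraries with 50 or more of them. The pDC values were 214 CPM untreated (171 to 265), 209 with the STING agonist (164 to 262), 151 with the LTbR agonist (119 to 189) and 168 with both (97.7 to 269), the last from 37 cells. These pDCs carried macrophage and monocyte markers at 26.5%, 9.42%, 10.4% and 22.2% of the macrophage level. Tlr7 in macrophages and monocytes was below every pDC value, at 47.5, 56.0, 48.8 and 37.4 CPM. B cells were at 39.6 CPM with the LTbR agonist (24.8 to 60.0) and 38.0 with both (22.1 to 60.9). cDC1, cDC2 and mature DCs were all at 5.13 CPM or less.

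Tlr7 in macrophages and monocytes was higher than untreated in 7 of 7 subsets with the STING agonist, at 1.02 to 1.71-fold, with the interval above 1 in 5 of them. The highest ratio was in cycling macrophages, with 44.7 against 26.1 CPM. With both agonists 6 of 7 subsets were lower than untreated, with the interval below 1 in 2. Set directly against the STING agonist library, the library with both agonists was at 0.667-fold for the class (0.618 to 0.719). In MHC class II-high monocytes the 2 values were 22.4 and 34.5 CPM (0.649-fold, 0.490 to 0.859).

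Tlr8 was largely a gene of macrophages and monocytes, which gave 80.2 to 91.2% of its UMIs. It stood at 54.4, 48.7, 44.6 and 43.7 CPM there and at 8.65, 8.02, 10.7 and 17.6 in neutrophils. The untreated log2 ratio of the 2 classes was 2.65, and 1.09 with each cell named by its own markers. C1q-high macrophages were the highest cell type in all 4 libraries, at 62.8, 72.4, 71.4 and 61.0 CPM, with Chil3 and Vcan monocytes next at 62.3, 71.3, 58.5 and 48.6. The untreated and the STING agonist pair could not be told apart by counting error. Interferon-stimulated macrophages were at 32.4 CPM with the LTbR agonist against 61.7 untreated.

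Tlr9 encodes the receptor of unmethylated CpG DNA. Its highest untreated levels were in pDCs (43.8 CPM, 25.5 to 70.2, on 17 UMIs) and interferon-stimulated macrophages (36.5, 28.3 to 46.2). In pDCs the treated libraries had 30.6, 19.8 and 9.87 CPM, on 11, 10 and 1 UMI. Interferon-stimulated macrophages had 28.4, 20.1 and 12.8 CPM. The macrophage and monocyte class stood at 15.6 CPM untreated and 11.5, 8.34 and 9.53 in the treated libraries, which is 0.740-fold (0.648 to 0.845), 0.535-fold (0.461 to 0.621) and 0.612-fold (0.521 to 0.717).

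With the LTbR agonist Tlr9 was lower in 7 of 7 subsets, at 0.253 to 0.707-fold, and the interval lay below 1 in 4. At untreated subset levels, the subset shares of the treated libraries would have given 0.960, 1.03 and 0.987-fold for the class, beside the measured values above. The share of these cells with a UMI, at 1000 UMIs per cell, was 1.91% untreated and 1.02%, 0.967% and 0.988% in the treated libraries, with T cells at 0.0774% or less. Neutrophils had 1.12 to 2.16 CPM. B cells had 19.8 CPM with the LTbR agonist, on 11 UMIs, and 6.71 with both, on 3.

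Tlr13, a receptor of bacterial ribosomal RNA that mice have and humans lack, was highest in neutrophils, at 174, 149, 134 and 134 CPM, and within them in the activated ones in all 4 libraries (258, 189, 147 and 170). The activated ones were 1.46, 1.39, 1.01 and 1.32-fold the mature ones, so with the LTbR agonist they hardly differed. Macrophages and monocytes were at 77.2, 88.0, 77.3 and 64.7 CPM, and their subsets were more even than for any of the other 9 genes in the untreated library, with a highest to lowest ratio of 1.74. Cycling macrophages were lowest in each library (40.1 to 52.8 CPM). In cDC1, Tlr13 was 11.3 CPM untreated (6.32 to 18.6) and 40.3, 32.4 and 38.7 CPM in the treated libraries (25.5 to 60.5, 21.2 to 47.5 and 24.2 to 58.5). The intervals of the treated libraries do not overlap with the untreated one. The untreated value rests on 15 UMIs and the others on 23, 26 and 22. Macrophage and monocyte markers in cDC1 were at 2.59 to 2.85% of the macrophage level in all 4 libraries, while neutrophil markers were at 0.00955% untreated and at 1.71%, 0.0834% and 0.0346%.

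Myd88 encodes the shared adaptor, and its RNA was found in every class. Its promoter is shown as that of the adaptor most of the receptors share. It is RefSeq (GRCm38.p6) chr9:119339969-119340268, read from the minus strand 5′ to 3′, with the interferon response element core (GAAA, 2 bases of any kind, GAAA) in capitals, beginning at -40.

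Myd88: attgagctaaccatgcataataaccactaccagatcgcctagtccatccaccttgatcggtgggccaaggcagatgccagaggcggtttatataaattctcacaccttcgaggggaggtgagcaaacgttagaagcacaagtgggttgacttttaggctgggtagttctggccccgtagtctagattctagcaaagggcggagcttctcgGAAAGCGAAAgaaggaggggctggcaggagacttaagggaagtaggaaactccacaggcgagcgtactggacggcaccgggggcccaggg

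This core was matched on either strand in 3.44% of all promoters, and among the 10 promoter rows of 8 members (Tlr4 and Tlr7 have none in the table) also in that of Tlr6. Tlr6 was at 14.5, 10.9, 8.31 and 14.6 CPM in interferon-stimulated macrophages, the lowest subset with the LTbR agonist. The PU.1 core GAGGAA was found in 4 of those 10 rows, for Tlr1, Tlr8, Tlr9 and Tlr13, against 28.3% of all promoters.

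Interferon-stimulated macrophages had 90.1, 87.5, 91.4 and 86.5 CPM of Myd88, and the Mmp12 and Gpnmb subset had the lowest level in all 4 libraries (19.5, 26.8, 19.5 and 25.0). The intervals of the interferon-stimulated subset overlapped in all 4 libraries. Mature neutrophils were close to it, at 90.2, 80.8, 88.4 and 119 CPM. The group so named joins a sub-cluster of 1365 cells with one of 71 cells led by the granule genes Ngp, Camp and Ltf. The name may not suit the smaller one. cDC1 stood at 58.8, 61.3, 87.2 and 98.4 CPM and cDC2 at 77.4, 78.4, 54.0 and 61.2. T cells (16.7 to 21.3) and NK cells (17.3 to 21.0) had more CPM of Myd88 than plasma cells (7.22 to 9.11). CPM depends on all UMIs of a cell type, and immunoglobulin genes led the larger plasma cell cluster. Its median was 9429 UMIs per cell, against 1328 in the other plasma cell cluster and 1980 to 3831 in T cell clusters. Myd88 UMIs per cell were not compared. Over macrophages and monocytes the values were 50.6, 49.1, 52.4 and 43.5 CPM. In neutrophils the STING agonist library was at 0.726-fold (0.571 to 0.935).

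The number of members at least 1.5-fold away from untreated was set against that of all genes with 200 or more UMIs over the 2 libraries. All treated libraries are compared with the same untreated library, so the comparisons are not independent. In macrophages and monocytes 1 of 10 members was past 1.5-fold with the STING agonist (Tlr3, lower), beside 17.3% of 10373 genes. With the LTbR agonist 2 of 10 (Tlr3 and Tlr9, lower) were, beside 6.82%, and with both agonists the same 2 of 10, beside 6.67%. The median log2 ratio of all genes tested was -0.21 with the STING agonist, and relative to it Tlr3 was no longer past 1.5-fold (log2 -0.39) and Tlr2 was, on the higher side (log2 0.70). The median of the 10 members was 0.00 with the STING agonist, 0.02 with the LTbR agonist, beside -0.05 for all genes, and -0.26 with both, beside -0.08.

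In neutrophils 0 of 5 members tested were past 1.5-fold with the STING agonist, beside 28.1% of genes, 0 of 3 with the LTbR agonist, beside 11.5%, and 0 of 4 with both, beside 8.32%. The median of the 5 members was -0.23 with the STING agonist, as was that of all genes, and relative to it Tlr6 passed 1.5-fold on the higher side. In dendritic cells 1 of 4 were past it with the STING agonist (Tlr3, lower), beside 7.28%, and 3 of 5 with the LTbR agonist (Tlr2 and Tlr4 higher, Tlr3 lower), beside 5.61%. With both agonists 2 of 4 were (Tlr2 higher, Tlr3 lower), beside 7.65%. In B and plasma cells 0 of the 10 members reached 200 UMIs in any comparison, where 28.3%, 13.2% and 11.6% of the genes tested were past 1.5-fold. With so few members in a class, no share of members is read as different from that of all genes.

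**Figure D3:**
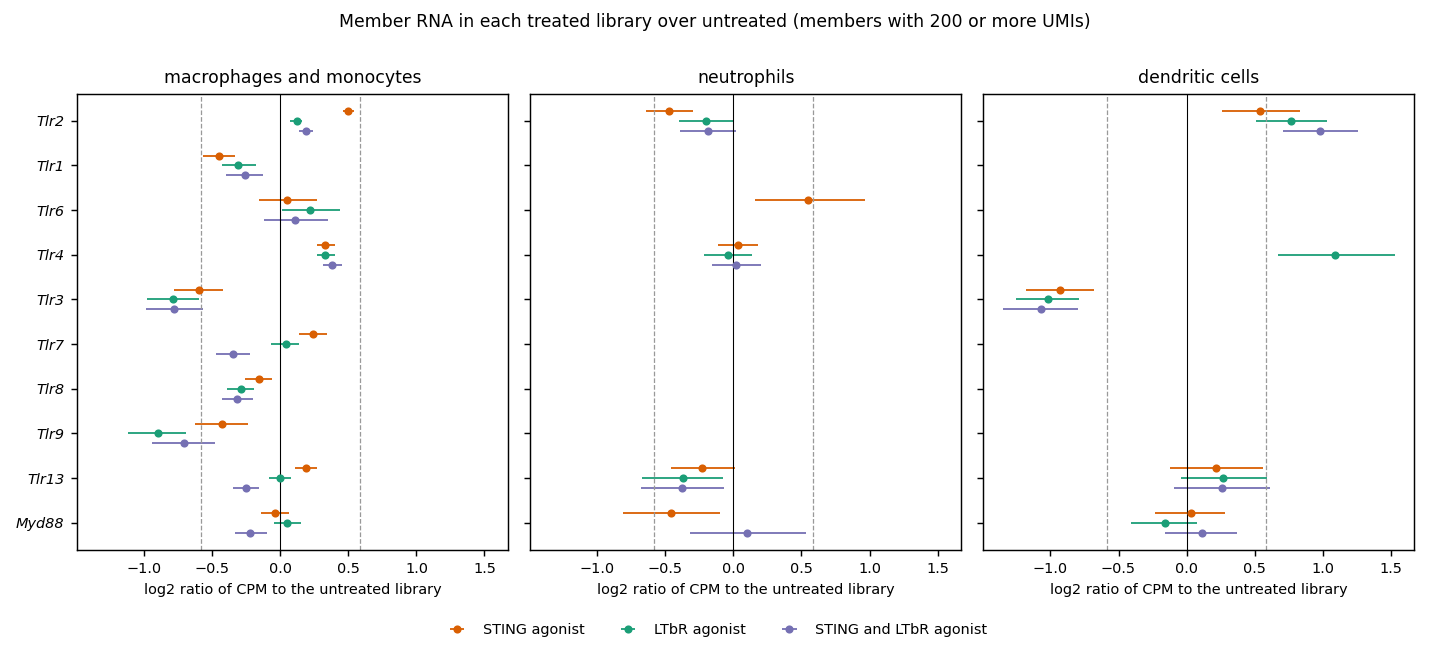
Points are log2 ratios of CPM in each treated library to the untreated library for the members with 200 or more UMIs, bars are exact 95% intervals for counting error, and dashed lines mark 1.5-fold. Tlr3 lies to the left for all 3 treated libraries in macrophages and in dendritic cells, Tlr2 to the right in both, and Tlr2 to the left in neutrophils.

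Over all leukocytes 5 of 10 members were past 1.5-fold with the STING agonist, beside 37.0% of genes: Tlr2, Tlr4, Tlr6 and Tlr13 higher and Tlr3 lower. With the LTbR agonist 2 of 10 were (Tlr3 and Tlr9, lower), beside 7.36%, and with both agonists the same 2, beside 10.2%. The level over all leukocytes also follows the mix of cells. Tlr6 was measured at 2.78-fold with the STING agonist, and untreated class levels at the treated class shares would have given 2.08-fold. For Tlr4 the values were 2.13 and 1.85, for Tlr13 1.52 and 1.45, and for Tlr2 1.59 and 1.31. For Tlr3 they were 0.479 and 0.774. Treated class levels at the untreated class shares would have given 1.20 for Tlr6, 1.27 for Tlr4, 1.14 for Tlr13, 1.37 for Tlr2 and 0.596 for Tlr3. The class shares are shares of UMIs, so in them fewer cells of a class and less RNA per cell cannot be told apart.

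**Figure D4:**
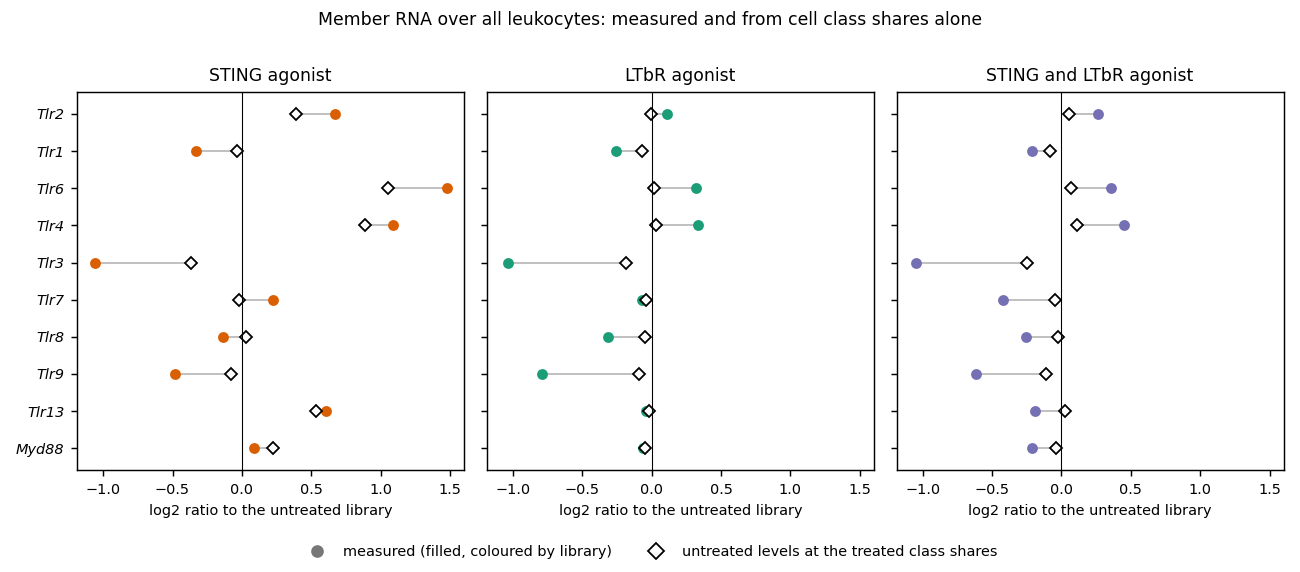
Filled points are measured log2 ratios over all leukocytes to the untreated library, and open diamonds are the ratios that untreated class levels would give at the class shares of the treated library. In the STING agonist panel the diamonds of Tlr4, Tlr6, Tlr13 and Tlr2 lie right of 0 (1.85, 2.08, 1.45 and 1.31-fold), and with the LTbR agonist the diamond farthest from 0 is that of Tlr3 (0.878-fold).

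The wider pathway was described by 36 other genes: 3 further receptors, co-receptors, endosomal proteins, adaptors, kinases and ligases, transcription factors and inhibitors. In macrophages and monocytes 10 of 34 tested were past 1.5-fold with the STING agonist, 6 higher and 4 lower, beside 17.3% of all genes, with a median log2 ratio of -0.08 beside -0.21. Among the higher ones were the co-receptor Cd14, with 2307 against 1063 CPM (2.17-fold), and the NF-κB inhibitors Nfkbia (1645 against 557 CPM, 2.95-fold) and Tnfaip3 (647 against 296 CPM, 2.18-fold). The others were Nfkb1 (1.53-fold), the protease Ctsl (1.68-fold), which cleaves endosomal receptors, and Tlr5 (1.63-fold), the flagellin receptor. Lower were Ly86 and Cd180, which form a receptor pair related to MD-2 and TLR4 (0.626 and 0.648-fold), with Tab1 and Tlr12 (0.652 and 0.651-fold).

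With the LTbR agonist 2 of 34 were past it, beside 6.82% of all genes: Nfkbia higher (1.67-fold) and Ly86 lower (0.655-fold). With both agonists 3 of 34 were, the same 2 and Tlr5, beside 6.67%. In dendritic cells 3 of 25, 5 of 26 and 6 of 25 were past it over the 3 treated libraries, beside 7.28%, 5.61% and 7.65% of all genes. Cd14 was higher in all 3 (2.97, 2.14 and 3.33-fold), as were Tnfaip3 (1.52, 1.61 and 1.64-fold) and Nfkbia (2.08, 1.58 and 1.73-fold). Macrophage and monocyte markers in mature DCs were at 2.30% of the macrophage level untreated and 5.23%, 2.47% and 18.0% in the treated libraries. In pDCs they were lower than untreated, at 26.5% and then 9.42%, 10.4% and 22.2%. The part of macrophage RNA in the dendritic cell ratios was not tested. Traf3, an adaptor and ligase of several receptors, was higher in both libraries with the LTbR agonist (1.60 and 1.58-fold) and Cd180 lower (0.659 and 0.571-fold). Irak2, a kinase downstream of MyD88, was at 1.57-fold with both agonists.

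In neutrophils 6 of 25 were past it with the STING agonist and all 6 were lower, beside 28.1% of all genes tested, of which 926 were lower and 299 higher. They were Unc93b1, the chaperone of endosomal receptors (0.610-fold), Hsp90b1, which folds the receptors (0.665-fold), the protease Ctss (0.605-fold), the adaptor Tirap (0.556-fold), and the transcription factors Irf5 and Irf7 (0.543 and 0.637-fold). The other 2 comparisons had 1 of 16 (Ctsl, 1.60-fold) and 0 of 15, beside 11.5% and 8.32%. In B and plasma cells 3 of 9, 4 of 15 and 3 of 15 were past it, beside 28.3%, 13.2% and 11.6% of all genes. With the LTbR agonist 2 were higher and 2 lower, and in the other comparisons all were higher. Pik3ap1, an adaptor of B cell signalling, was higher in all 3 (2.56, 1.87 and 1.98-fold). B cells themselves made up 7 of 114 cells of this class untreated and 8 of 75, 143 of 541 and 210 of 1039 in the treated libraries, and their part in these ratios was not tested.

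The genes whose pattern over 64 profiles (cell types by libraries) was most like that of each member were found among 13189 genes by Pearson correlation of log2(CPM + 1). Profiles of 1 library share its depth and free RNA, so the values are descriptive. For Tlr2 they were Tgm2, Klra2 and Pilra (0.97, 0.96 and 0.96), and for Tlr4 Cebpb, Trem3 and A530013C23Rik (0.95, 0.95 and 0.94). For Tlr6 they were Ndel1, Csf3r and Dusp1 (0.90, 0.89 and 0.89), of which Csf3r encodes the G-CSF receptor and is a neutrophil marker. For Tlr13 they were Gabarap, Il13ra1 and Nfe2l2 (0.94 each), and for Tlr1 Clec4a3, Adam9 and Oas1g (0.79, 0.77 and 0.76).

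Among endosomal receptors, Tlr3 was like Klrg2 and Fam149a (0.87 and 0.82), and Tlr7 like Apobec1 and Cybb (0.80 each). Tlr8 was most like Pla2g15, Lyz2 and Apoc2 (0.90, 0.90 and 0.89), and Tlr9 like Ly86, Cds1 and Prcp (0.91, 0.91 and 0.90). Myd88 was most like Sem1, Ifitm2 and Rasgrp4 (0.89, 0.88 and 0.87). Among the members themselves the highest correlations were those of Tlr2 with Tlr4 (0.86) and of Tlr4 with Tlr6 (0.85), and the lowest was that of Tlr3 with Tlr4 (-0.16).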

How the data were processed

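Live CD45+ cells of 4 groups were sequenced with a 10x Genomics 5′ kit, of which this series used the later version per the labels. The deposited matrices hold UMI counts per gene and cell that the authors made with Cell Ranger; the labels name version 7.1.0 and mm10, while the matrix headers name 8.0.1, so no gene coordinates of the files are given. Total counts were 62248447, 85855398, 73704334 and 52109958 UMIs (untreated, STING agonist, LTbR agonist, both).

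Cells with 300 to 5000 genes and at most 6% mitochondrial UMIs were kept, as the study did. The automatic threshold of Scrublet marked 0, 0, 1 and 0 cells, so the highest-scoring cells were removed at an assumed rate of 0.4% per 1000 cells (305, 949, 857 and 1066). Counts were scaled to 10000, and 2000 variable genes without the members, 30 components and 20 neighbours gave 31 Leiden clusters (resolution 1; scanpy 1.11.5). Clusters were named from fixed marker lists by fold over the median cluster. The naming thresholds were set after marker values had been seen. Cells left without a class made up 4.59 to 8.57% of leukocytes. They include macrophage sub-clusters with markers of another class (3.82 to 10.6% of macrophage-cluster cells).

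UMIs were summed per cell type and library. Ratios have exact binomial intervals, levels exact Poisson ones and shares Clopper-Pearson ones (95%). A gene was counted as past the fold at 1.5-fold in either direction with 200 or more UMIs. The ratio step was tested on simulated counts. With 1 library a group no test was made. The members, the pathway list and the markers were chosen with earlier results of these data known. All 10 members were named, as were pathway genes past 1.5-fold and the 3 genes most correlated with each member. A few items that these rules would name are not reported here. Alternatives were another resolution, naming cell by cell, no doublet removal, wider limits, centring, equal weight for cells, no UMI minimum and thinning to 1000 UMIs. Sequences are from RefSeq.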

Additional observations from a re-analysis of the deposited data

How the results depend on the processing

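No paired analysis was possible because each group is 1 library, and for the same reason no replicate could be left out. Of 413 ratios of single members within the cell classes under the alternatives, 364 moved by less than their counting error and 49 by more. Of the 81 that belong to the 11 within-class ratios past 1.5-fold, 68 were still past it and all 81 kept their direction. Ratios over all leukocytes were not part of this tally. With each cell named by its own markers, the number of members past 1.5-fold in macrophages and monocytes was 0 with the STING agonist, 1 with the LTbR agonist and 0 with both. In neutrophils it was then 1 with the STING agonist, in dendritic cells 2 with the STING agonist and 4 with both, and in B and plasma cells 2 with the STING agonist and 1 with both. At Leiden resolution 2 it was 0 in macrophages with the STING agonist and 1 in dendritic cells with the LTbR agonist, and wider limits on cells gave the same 0 and 1. Wider limits, equal weight for cells and no doublet removal each gave 1 over all leukocytes with both agonists. No doublet removal gave 1 in B and plasma cells with both, and equal weight 1 in macrophages with both. Centring on the median of all genes gave 1 in neutrophils and 2 in dendritic cells with the STING agonist. With no minimum of UMIs the counts were 3, 3 and 3 in neutrophils (STING agonist, LTbR agonist, both), 3 in dendritic cells with the STING agonist and 5 with both, and 8, 6 and 5 in B and plasma cells. On the log2 scale, the untreated level of Tlr3 in cDC1 over macrophages was 4.11 and became 3.04 with each cell named alone, and that of Tlr8 in macrophages over neutrophils went from 2.65 to 1.09. That of Tlr7 in pDCs over macrophages went from 2.17 to 1.71 with wider limits. The number of members with a UMI in a larger share of macrophages than untreated was 0 with the LTbR agonist and 0 with both, and became 6 and 3 after thinning. Counting the left-out macrophage sub-clusters in their class was an alternative chosen after seeing the data. Under it no macrophage ratio past 1.5-fold was lost. The causes were not tested. Depth limits the values that rest on few UMIs, such as those in B cells and pDCs.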

Other observations

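Among the receptors outside the 10 genes, Tlr11, a receptor of parasite profilin in mice, had 91.9, 61.3, 57.3 and 77.3 CPM in cDC1 (untreated, STING agonist, LTbR agonist, both), against 1.82, 0.963, 1.25 and 2.17 in macrophages and monocytes. Tlr12, its partner, had 33.9, 21.0, 51.1 and 33.4 CPM in cDC1, on 45, 12, 41 and 19 UMIs, and 14.2, 9.24, 13.1 and 17.7 in macrophages and monocytes. C1q-high macrophages had 25.7, 25.5, 38.6 and 52.8 CPM of Tlr12, above cDC1 in the STING agonist library and in that with both. Tlr5 had 14.2, 23.2, 18.6 and 24.7 CPM in macrophages and monocytes and 0 UMIs in cDC1 of all 4 libraries, where 3 counts would be 2.26 to 5.27 CPM.

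Clusters that carried carcinoma markers passed the CD45 sort with 157, 217, 202 and 280 cells. In them Tlr4 stood at 26.6, 49.3, 35.8 and 27.3 CPM and Tlr3 at 8.64, 5.98, 11.6 and 15.8. T cells also had their highest Tlr4 level in the STING agonist library (17.9 CPM). The part of free RNA in the carcinoma values was not tested. Ptprc, which encodes CD45, was at 58.3, 59.0, 46.2 and 107 CPM in the carcinoma clusters, against 1002 CPM in the left-out macrophage sub-clusters of the untreated library. The untreated left-out sub-clusters (156 cells) had 271 CPM of Tlr2 (247 to 297), and those sub-clusters were counted in no class.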
